A study of Mus musculus with 6 samples.

Results

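The genes described here make, modify and move the lipids of the skin barrier. They comprise 33 genes of ceramide, very-long-chain fatty acid, triglyceride and sterol metabolism and lipid transport, together with 2 membrane-anchored serine proteases needed for barrier formation, 35 in all. The rule that picks them uses gene names and no measured value, but the genes were chosen with earlier results of these data known. Of the 35 genes, 34 had a probe set assigned to 1 gene symbol, with 68 probe sets among them of 45101 on the array. Sts was not analysed here. The probe set with the highest mean log2 signal stood for each gene, and 31 of the 34 lay above the filter on low signal and were tested among 22518 probe sets.

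The signals came from skin of mouse embryos at embryonic day 16.5, with 1 Affymetrix array for each of 3 Tcfap2c mutant and 3 control samples. AP-2 gamma, the product of Tcfap2c (now named Tfap2c), is a DNA-binding regulator of surface ectoderm and keratinocytes. The labels give no strain, no allele, no Cre driver and no breeding scheme, and the description field of the control samples also mentions the mutation, while title and source name do not. Whether litters were shared is not stated, and the p-values reflect only how these 6 samples vary, which may in part be technical. The comparison asks which skin transcripts differ when Tcfap2c is mutated.

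The water barrier of skin is made late in fetal life, when keratinocytes of the granular layer secrete lamellar bodies filled with glucosylceramides, cholesterol and phospholipids. These are converted outside the cell to ceramides, free fatty acids and cholesterol, which stack into lamellae between the cornified cells. Acylceramides, which carry an ultra-long omega-hydroxy fatty acid esterified to linoleate, are particular to this barrier, and inherited loss of the enzymes that make or oxidise them causes ichthyosis.

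The signal of Tfap2c was 1596, 1392 and 1247 in mutant samples 1, 2 and 3 and 1330, 1347 and 1193 in control samples 1, 2 and 3. The groups overlapped, and since the altered part of the gene is not given, these values do not check the labels. Keratinocyte genes were bright in every sample, with Krt10 between 38888 and 55935 and Krt5 between 11821 and 22130. Mutant sample 1 stood apart, with a first principal component score of -65.1 against 0.352 to 28.3 in the others. The summed signal of 7 tested genes of decidua and uterus was 90737 in that sample and 8945 to 10495 in the other 5, with Prl8a2, a decidual prolactin, at 14204 against at most 61.2. Another 5 genes of that list lay below the filter, which uses the mean log2 over all 6 samples. Prl8a2 was above the filter level of 114.5 in mutant sample 1 alone, so the sum leans toward genes high in that sample. The sum in mutant sample 1 also held Prap1 at 32479, Acta2 at 23703 and Actg2 at 13445. Of the 7 tested genes 1, Wnt4, was instead lowest in that sample, at 807 against 1038 to 1566. The part of decidual or uterine RNA in the results was not tested. Left out of the fit, that sample turns the sign of 10 tested members, whose values without it are given below.

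No barrier lipid gene changed between the groups at an adjusted p of 0.05 in limma, with 0 of 31 past the threshold by the probe set that stood for it. Of all probe sets tested, 0.00444% passed. At an unadjusted p under 0.05 there was 1 member, Elovl6, with higher signal in mutant skin, and 0 with lower signal, against 1.45% and 1.97% of all probe sets tested, 3.42% in all. The differences of mutant minus control ran from -0.26 to 0.35 on the log2(signal + 24.48) scale, with 15 positive and 16 negative. Their median was -0.0021, beside -0.025 for all probe sets tested. By the probe set used, all 31 members had a 95% interval of the difference within 1 of 0 on the log2 scale. A 2-fold change of the group mean was outside these intervals. The same held for 90.1% of all probe sets tested. Intervals of some other tested probe sets of members went beyond 1 in size. They ran from 0.48 to 1.25 and -0.2 to 1.55 for Sptlc1, -1.28 to 0.4 for Acer1 and -1.05 to 0.38 for Elovl6. An interval within 0.5 of 0 was reached by 10 members (32.3%, against 32.0% of all probe sets tested), so for most members a change between those sizes lay within the interval.

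**Figure D1:**
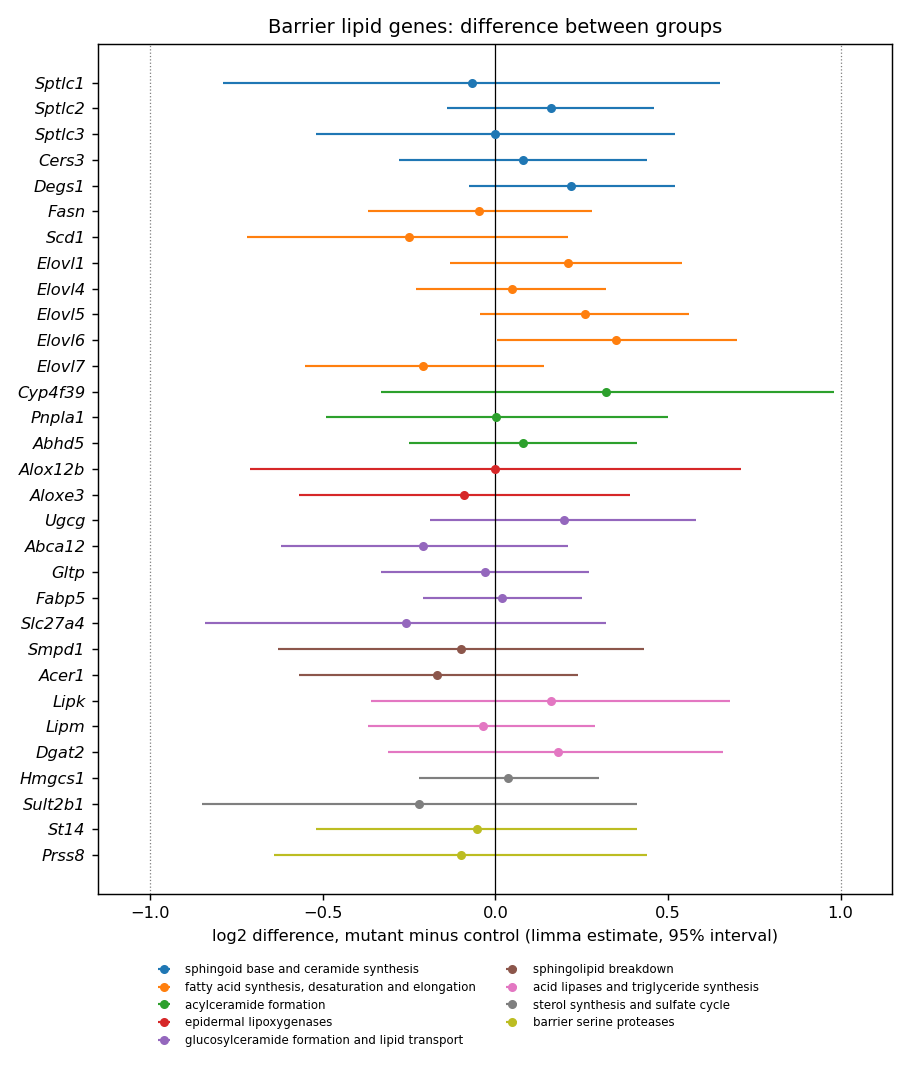
Log2 difference between mutant and control skin (horizontal axis, limma estimate with its 95% interval, 3 samples in each group) for the 31 tested barrier lipid genes (vertical axis), coloured by role; dotted lines mark a difference of 1. By the probe set that stood for each gene, the intervals of 30 genes include 0 and that of Elovl6 starts at 0.0043. The intervals run from -0.85 (Sult2b1) to 0.98 (Cyp4f39).

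The group means hid a divergence among the mutant samples. Mutant sample 2 had the highest signal of all 6 samples for 23 of 31 members (74.2%, against 19.3% of all probe sets tested). Mutant sample 1 had the lowest for 17 of 31 (54.8%, against 31.0% of all probe sets tested). It was above all 3 control samples for 4 members, against 29.5% of all probe sets. As a median over the members, the deviation from the control mean reached 0.30 in mutant sample 2, -0.14 in mutant sample 1 and -0.037 in mutant sample 3. For the control samples it lay between -0.023 and 0.052. Over all probe sets tested, the same medians lay between -0.046 and 0.0094 in the 6 samples. Mutant sample 2 was above all 3 control samples for 25 members (80.6%, against 26.5% of all probe sets) and mutant sample 1 below all 3 for 18 (58.1%, against 38.3%). The signal of mutant sample 2 was over 1.5 times that of mutant sample 1 for 13 of 31 members and over 2 times for 6, against 16.5% and 5.48% of all probe sets tested. The highest control sample exceeded the lowest by over 1.5 times for 1 member, against 20.7% of all probe sets. These measures are unlike, as the control ratio takes the extremes of 3 samples and the mutant ratio 1 pair chosen after its values were seen. The SD of the log2 signal was larger among mutant than among control samples for 27 of 31 members (87.1%, against 69.4% of all probe sets). Its median was 0.29 in the mutant and 0.14 in the control group, beside 0.25 and 0.16 over all probe sets. Related gene lists outside the members had the same order of mutant samples 1 and 2. Their median deviations in mutant samples 1, 2 and 3 were -0.16, 0.29 and 0.081 for 25 sterol genes, -0.10, 0.21 and 0.0079 for 33 fatty acid genes and -0.12, 0.43 and 0.26 for 8 membrane proteases and inhibitors. For 22 other sphingolipid genes the medians were -0.033, 0.017 and -0.021.

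**Figure D2:**
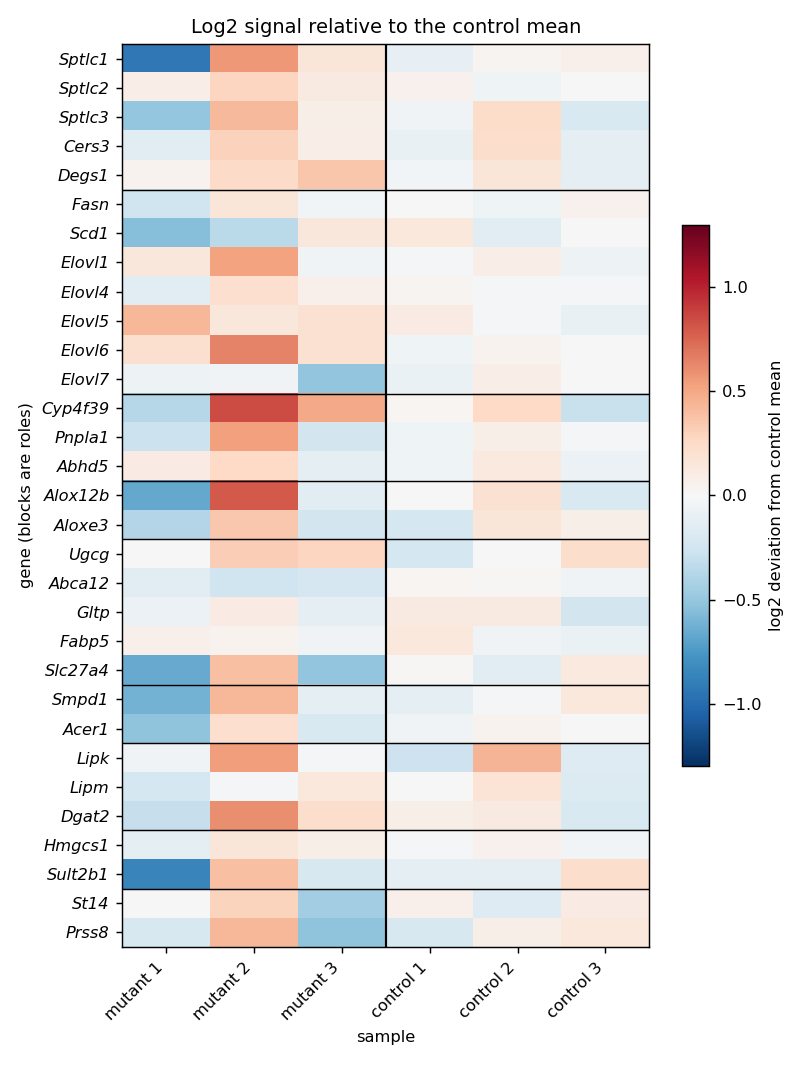
Log2 signal of the 31 tested barrier lipid genes (rows, with blocks by role) in each of the 6 samples (columns) relative to the mean of the 3 control samples, red above and blue below it. Mutant sample 2 is highest of the 6 samples in 23 rows and mutant sample 1 lowest in 17.

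The members' median lay so near 0 that leaving out a sample could turn its sign. Without mutant sample 1, 23 of 31 members were positive, with a median of 0.14. In that fit 5 members had higher signal at an unadjusted p under 0.05 and 0 lower, against 3.26% and 3.89% of all probe sets. They were Elovl6, Dgat2, Sptlc1, Degs1 and Cyp4f39. Without mutant sample 2, 8 were positive, with a median of -0.10, and 0 had higher and 3 lower signal at such a p, against 2.49% and 3.24% of all probe sets. These 3 were Sult2b1, Slc27a4 and Acer1. Without mutant sample 3, 1 was higher (Elovl6, 0.43) and 1 lower (Scd1, -0.45), against 1.44% and 2.34% of all probe sets, and the median was 0.053 with 19 positive. The median also turned positive without control sample 1 (0.00046) or control sample 2 (0.043). By the probe set that stood for it, no member passed an adjusted p of 0.05 in limma in any of these fits.

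Keratinocyte markers moved with this pattern in part. The median deviation of 6 basal layer genes from the control mean was -0.53, 0.22 and -0.12 in mutant samples 1, 2 and 3, and that of 7 spinous layer genes was -0.10, 0.25 and -0.10. The basal genes summed to 30615, 51906 and 40589 in mutant samples and 43936 to 48784 in control samples, and the spinous genes to 163472, 201851 and 161568 against 157547 to 192985. The 12 granular layer genes mark the layer that secretes lamellar bodies. Like the other lists, they were chosen with earlier results of these data known, and the part of that choice in their level was not tested. These genes gave -0.86, -0.14 and -0.88, against -0.052 to 0.027 in the control samples. Their summed signal was 69062, 97619 and 71267 in the mutant samples and 102662 to 107594 in the control samples. In mutant sample 2, 27 of 31 members lay above their control mean and 4 below, while 4 of 12 granular layer genes lay above and 8 below. The 6 fibroblast genes gave medians between -0.048 and 0.018 in the mutant samples. Of the 12 granular layer genes, 11 were negative and 1 positive, from -3.7 for Flg to 0.23 for Cnfn, with Lor at -0.081. In limma 7 of them were lower at an unadjusted p under 0.05, against 1.97% of all probe sets, and 0 passed an adjusted p of 0.05. For 5 of them all mutant samples lay below all control samples, against 5.03% of all probe sets. Lower at such an unadjusted p were also 1 of 7 spinous and 0 of 6 basal genes. In bulk skin, fewer keratinocytes and less RNA per keratinocyte cannot be told apart. Whether single marker genes changed apart from the amount of keratinocyte RNA was not tested, nor was the part of these markers in the members' values.

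**Figure D3:**
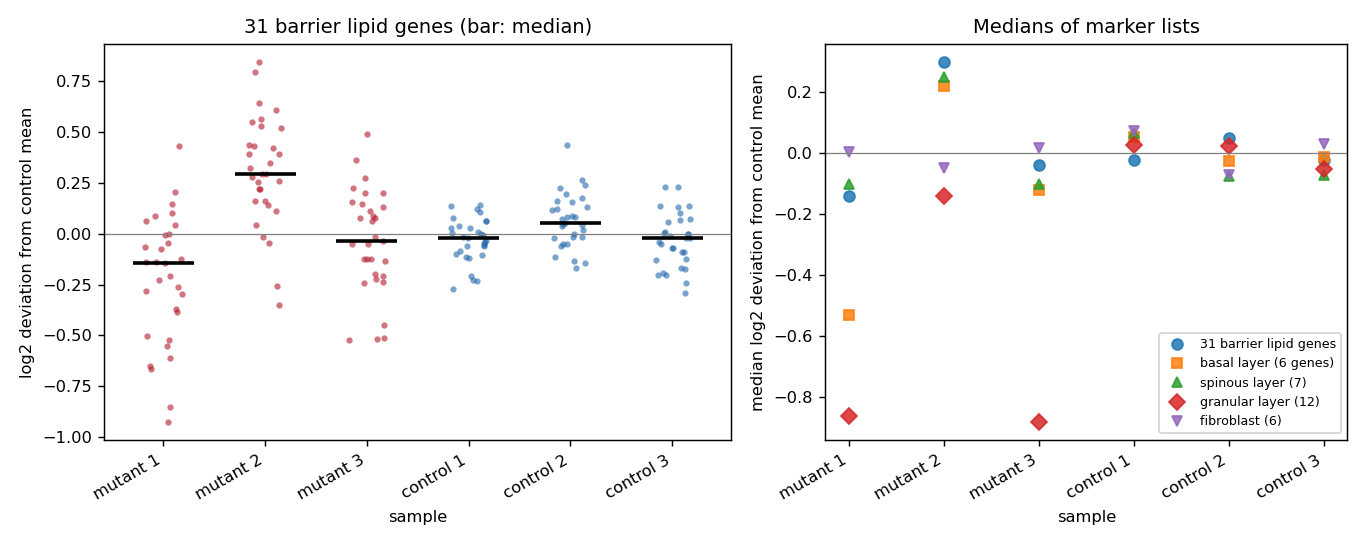
Left, log2 deviation from the control mean (vertical axis) of each of the 31 barrier lipid genes in each of the 6 samples (horizontal axis), with the median as a bar; right, median deviation of the same genes and of marker lists for skin layers and fibroblasts. The members' medians are -0.14, 0.30 and -0.037 in mutant samples 1, 2 and 3, and the granular layer medians are -0.86, -0.14 and -0.88.

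In 4 of the 31 tested members (12.9%, against 8.33% of all probe sets tested) the mutant and control samples did not overlap, 3 with higher (3.3% of all probe sets) and 1 with lower signal (5.03%) in mutant skin. Elovl6, which elongates palmitate to stearate, was at 2197, 2985 and 2189 in mutant samples 1, 2 and 3 and at 1827, 1967 and 1911 in control samples 1, 2 and 3. Its lowest mutant sample lay above its highest control sample, and mutant sample 2 was the highest. The log2 difference was 0.35 (SE 0.15), a 1.28-fold higher level, with a limma unadjusted p of 0.0478 and an adjusted p of 1.0. That unadjusted p was at or above 0.05 under 9 of 18 alternatives, and the difference was 0.20 without mutant sample 2 and 0.046 as the mean over its probe sets. Of the other tested Elovl6 probe sets, 1 gave 0.12 and 1 gave -0.33. Elovl5, an elongase of polyunsaturated fatty acids, was at 2989, 2445 and 2543 in mutant and at 2382, 2186 and 2073 in control samples. Its difference of 0.26 (SE 0.13) had an adjusted p of 1.0 in limma, and mutant sample 1, not 2, was the highest. Both tested Elovl5 probe sets had a positive difference.

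Sptlc2, a catalytic subunit of serine palmitoyltransferase, which makes the first sphingoid base, was at 1328, 1521 and 1353 in mutant and 1303, 1197 and 1247 in control samples. The gap between its groups was small, 1303 against 1328, and the log2 difference was 0.16 (SE 0.13). The other tested Sptlc2 probe set overlapped between groups, at 429, 565 and 538 in mutant and 548, 457 and 481 in control samples. Its difference was 0.035. Abca12, the transporter that loads glucosylceramides into lamellar bodies and whose loss causes harlequin ichthyosis, was the 1 tested member lower in every mutant sample. Its signal was 197, 180 and 185 in mutant and 225, 223 and 211 in control samples, with a log2 difference of -0.21 (SE 0.18). Its single probe set was dim, the lowest of the tested members at a mean signal of 203, and the limma adjusted p was 1.0.

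**Figure D4:**
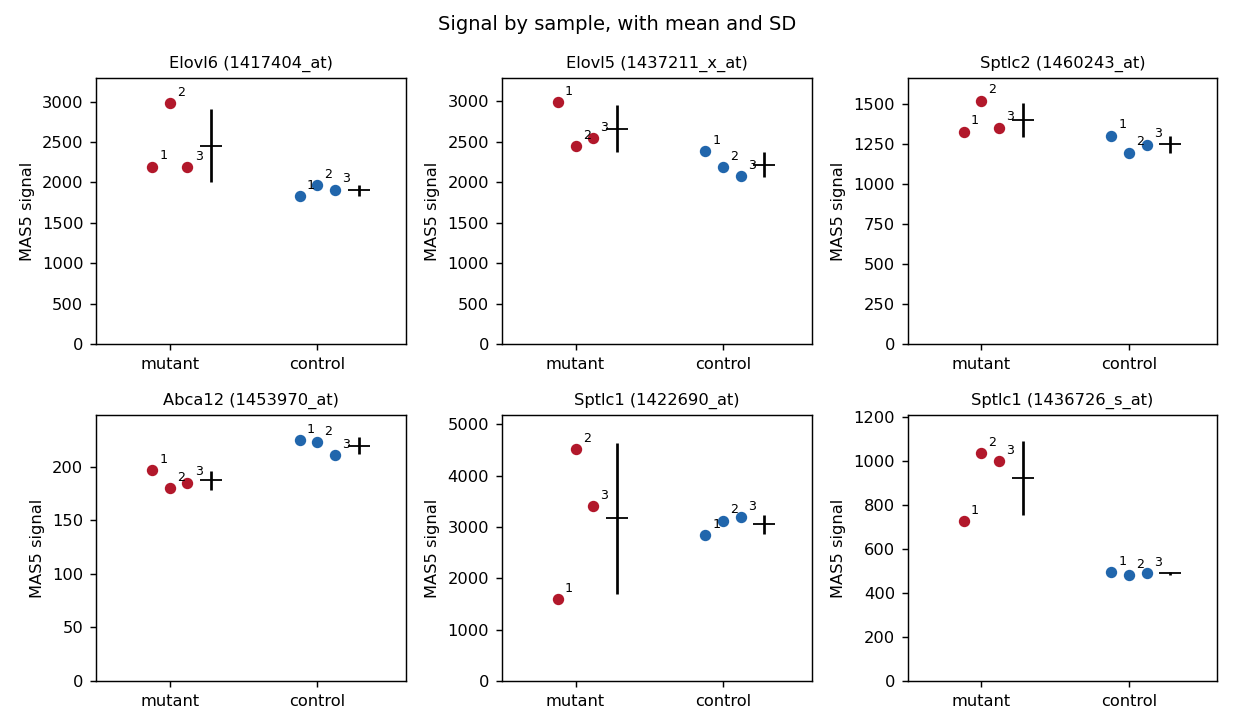
MAS5 signal (vertical axis, linear from 0) of the 4 tested members whose groups did not overlap and of Sptlc1 by 2 of its probe sets, in mutant (red) and control (blue) skin; points are samples numbered by replicate and bars the mean ± SD of 3 samples. The probe set used for Sptlc1 spans 1594 to 4515 in mutant samples, while another probe set of the gene does not overlap between groups.

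The promoters of these 4 genes, and of Lipn, are shown because AP-2 gamma binds DNA and in these 5 members the groups did not overlap. Lipn, a lipase of late keratinocytes, lay below the filter and was not tested. They run from 250 bases before to 50 bases after the annotated start, from RefSeq on GRCm38.p6, 5′ to 3′ as RefSeq gives them. Capitals mark letters of the AP-2 consensus GCCNNNGGC or its longer form GCCNNNNGGC, each of which reads the same on both strands. The windows are chr3:129532136-129532435, + strand for Elovl6, chr9:77917115-77917414, + strand for Elovl5, chr12:87388306-87388605, - strand for Sptlc2, chr1:71414861-71415160, - strand for Abca12 and chr19:34067108-34067407, + strand for Lipn.
Elovl6: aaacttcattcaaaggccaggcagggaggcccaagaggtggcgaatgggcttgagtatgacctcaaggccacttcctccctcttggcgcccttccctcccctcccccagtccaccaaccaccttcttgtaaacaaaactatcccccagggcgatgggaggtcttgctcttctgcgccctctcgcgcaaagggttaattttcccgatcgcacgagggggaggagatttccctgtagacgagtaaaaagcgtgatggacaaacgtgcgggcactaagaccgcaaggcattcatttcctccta
Elovl5: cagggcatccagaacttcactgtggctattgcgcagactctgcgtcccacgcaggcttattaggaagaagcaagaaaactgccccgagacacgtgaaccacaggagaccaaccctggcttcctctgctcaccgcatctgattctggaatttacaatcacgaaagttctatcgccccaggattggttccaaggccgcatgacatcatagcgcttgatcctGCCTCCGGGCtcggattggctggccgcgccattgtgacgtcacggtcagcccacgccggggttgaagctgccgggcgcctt
Sptlc2: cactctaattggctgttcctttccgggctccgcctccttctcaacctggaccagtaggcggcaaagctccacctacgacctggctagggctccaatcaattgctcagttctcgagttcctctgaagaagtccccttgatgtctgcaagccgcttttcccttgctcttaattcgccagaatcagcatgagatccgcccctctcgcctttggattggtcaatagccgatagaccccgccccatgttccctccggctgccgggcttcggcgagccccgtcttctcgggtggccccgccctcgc
Abca12: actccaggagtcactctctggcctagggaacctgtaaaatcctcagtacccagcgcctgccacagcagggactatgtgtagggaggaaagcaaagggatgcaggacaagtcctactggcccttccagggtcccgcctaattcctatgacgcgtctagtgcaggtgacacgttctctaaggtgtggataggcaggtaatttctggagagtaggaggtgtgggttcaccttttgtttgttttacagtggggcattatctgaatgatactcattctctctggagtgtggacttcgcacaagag
Lipn: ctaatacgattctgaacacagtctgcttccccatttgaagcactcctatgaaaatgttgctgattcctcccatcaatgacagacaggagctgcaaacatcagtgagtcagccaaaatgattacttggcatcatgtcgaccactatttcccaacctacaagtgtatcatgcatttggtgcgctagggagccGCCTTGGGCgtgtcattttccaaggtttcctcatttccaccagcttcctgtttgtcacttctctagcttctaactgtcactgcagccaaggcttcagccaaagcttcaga
The Elovl5 window held 1 match to the longer form and the Lipn window 1 to the shorter, and the other 3 windows held none. A window was found for 26 of the 35 genes, and 13 of these 26 genes had a match to either form in at least 1 window, against 29.6% of all 27025 genes in the table. The member windows were richer in G and C, with a median of 61.7% against 52.7%, and the part of base composition in this share was not tested. Among tested members, the 11 genes with a match had a median log2 difference of -0.030 and the 13 without one 0.080. A match is a description of letters, not of binding.

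Sphingoid base and ceramide synthesis had 5 tested members, 3 positive and 2 negative. Sptlc1, the partner subunit of Sptlc2, was at 1594, 4515 and 3402 in mutant and 2837, 3126 and 3191 in control samples, so mutant samples lay on both sides of the control range. The difference of this probe set was -0.068 (SE 0.32). Another probe set of the same gene, a dimmer one, gave 727, 1035 and 997 in mutant and 493, 482 and 490 in control samples, with no overlap. Its log2 difference was 0.86 (SE 0.17), a 1.82-fold higher level, with a limma adjusted p of 0.426, and it was singled out after its values were seen. The third tested probe set gave 0.67, so with all samples the brightest probe set of Sptlc1 and the dimmer ones disagreed in sign. Without mutant sample 1 all 3 were positive, at 0.36 (SE 0.14, limma adjusted p = 0.621) for the brightest, 1.02 (SE 0.14) for the dimmer one and 0.94 (SE 0.37) for the third. The value of 1.02 had a limma adjusted p of 0.0272 in that fit, and with array weights the same probe set gave 0.97 with an adjusted p of 0.0076. This dimmer probe set, an _s_at probe set, was the 1 member probe set past the adjusted threshold under any alternative. The third was an _x_at probe set, and whether either also matches other transcripts was not tested.

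Degs1, the desaturase that turns dihydroceramide into ceramide, was at 6769, 7827 and 8446 in mutant and 6417, 7334 and 6001 in control samples. The samples overlapped, and its difference was 0.22 (SE 0.13). Cers3, the ceramide synthase for very-long-chain and ultra-long acyl chains, was at 2334, 3169 and 2735 in mutant and 2400, 3012 and 2365 in control samples, a difference of 0.080 with a 95% interval of -0.28 to 0.44. Sptlc3, the subunit that shifts the enzyme to other acyl chains, differed by -0.0021, with mutant samples at 1978, 3774 and 2969, and by 0.25 without mutant sample 1.

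Among the 7 tested genes of fatty acid synthesis, desaturation and elongation, 4 were positive and 3 negative. Elovl1, which extends saturated fatty acids to very long chains, was among the brightest members, at 21254, 27497 and 18523 in mutant and 18916, 20420 and 18279 in control samples. All 4 of its probe sets gave a positive difference, 0.21 (SE 0.15) for the one used. Elovl4, the elongase that makes the ultra-long chains of acylceramides, was at 6935, 8924 and 8008 in mutant and 7865, 7567 and 7547 in control samples. The control samples lay within the mutant range, and the difference was 0.047 (SE 0.12).

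Elovl7, an elongase of saturated and monounsaturated chains, was at 3634, 3682 and 2661 in mutant and 3583, 4027 and 3815 in control samples. Its difference was -0.21 (SE 0.15), all 6 of its probe sets were negative, and mutant sample 3 was the lowest. Scd1, the stearoyl-CoA desaturase, was at 385, 446 and 640 in mutant and 639, 524 and 573 in control samples. Mutant sample 3 lay at the upper end of the control range and mutant samples 1 and 2 below it, and the difference was -0.25 (SE 0.20). The other Scd1 probe set gave 0.34, so the probe sets disagreed. Fasn, the fatty acid synthase, differed by -0.047, and by 0.061 without mutant sample 1.

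Acylceramide formation is the step most specific to epidermis. Cyp4f39, the mouse counterpart of the human fatty acid omega-hydroxylase CYP4F22, was at 1066, 2503 and 1953 in mutant and 1410, 1664 and 1125 in control samples. Mutant samples 2 and 3 lay above and mutant sample 1 below all control samples. The difference was 0.32 (SE 0.29), with an interval that reached 0.98, the highest of any member by the probe set used. Without mutant sample 1 it was 0.67 (SE 0.18), with a limma adjusted p of 0.371. Pnpla1, the transacylase that joins linoleate to omega-hydroxyceramide, was at 923, 1642 and 951 in mutant and 1083, 1195 and 1111 in control samples. Its mean was level, at 0.0021 on the log2 scale, while mutant sample 2 lay above and mutant samples 1 and 3 below every control sample. Abhd5, the cofactor that aids PNPLA1, differed by 0.080 (SE 0.15).

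The epidermal lipoxygenases oxidise the linoleate of acylceramides in sequence, which allows ceramides to be bound to the cornified envelope. Alox12b, the first of the pair, was at 2544, 7044 and 3691 in mutant and 4066, 4649 and 3519 in control samples. The mutant mean log2 signal was within 0.0021 of the control mean, although mutant samples 1 and 2 differed 2.77-fold. Its interval ran from -0.71 to 0.71. Aloxe3, which acts on the product of ALOX12B, was at 780, 1308 and 864 in mutant and 869, 1144 and 1079 in control samples, a difference of -0.092 (SE 0.21). For both genes mutant sample 2 was the highest and mutant sample 1 the lowest of the 6 samples. Without mutant sample 1 the differences were 0.33 for Alox12b and 0.053 for Aloxe3.

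Lipid carriers and the glucosylation step had 5 tested members. Ugcg, which makes glucosylceramide, was at 923, 1165 and 1128 in mutant and 788, 927 and 1090 in control samples. The groups overlapped, its 3 tested probe sets were all positive, and the difference was 0.20 (SE 0.17). Slc27a4, a fatty acid transporter and acyl-CoA synthetase whose loss gives a tight, thick neonatal skin in mice, was at 935, 1952 and 1029 in mutant and 1492, 1340 and 1626 in control samples. Mutant samples 1 and 3 lay below and mutant sample 2 above every control sample. The difference was -0.26 (SE 0.26) with all samples and -0.58 (SE 0.15, limma adjusted p = 0.674) without mutant sample 2. Fabp5, the epidermal fatty acid binding protein, had the highest mean signal of the members and differed by 0.019, and Gltp, a glycolipid transfer protein, by -0.030. The signs of these last 2 differences turned under other settings, that of Fabp5 to -0.0036 without mutant sample 1.

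Both tested genes of sphingolipid breakdown were negative. Acer1, the alkaline ceramidase of differentiated keratinocytes, was at 2731, 4584 and 3427 in mutant and 3812, 4051 and 3931 in control samples. The 3 control samples were close together, mutant sample 2 lay above them and the other mutant samples below. Its difference was -0.17 (SE 0.18). Smpd1, the acid sphingomyelinase that frees ceramide from sphingomyelin, differed by -0.10 and ranged from 2710 to 5624 among the mutant samples, beyond the control range of 3826 to 4573 on both sides. Without mutant sample 1 the differences of Acer1 and Smpd1 were 0.012 and 0.15.

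Dgat2, which makes triglycerides that store linoleate, was at 4615, 8658 and 6635 in mutant and 5991, 6162 and 4956 in control samples. The difference was 0.18 (SE 0.21), and 0.42 (SE 0.14, limma adjusted p = 0.578) without mutant sample 1. Lipk and Lipm, acid lipases of the upper epidermis, differed by 0.16 and -0.037 and overlapped between groups, and Lipm differed by 0.060 without mutant sample 1. In the sterol group, Hmgcs1, an early enzyme of cholesterol synthesis, differed by 0.038. Sult2b1, which makes cholesterol sulfate, was at 1004, 2413 and 1586 in mutant and 1690, 1693 and 2154 in control samples, a difference of -0.22 (SE 0.28). As in Alox12b, mutant sample 1 was the lowest and mutant sample 2 the highest, and without mutant sample 1 the difference was 0.093.

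The barrier proteases showed another order. St14, which encodes matriptase, was at 627, 775 and 453 in mutant and 656, 557 and 676 in control samples. Prss8, which encodes prostasin, a protease that acts with matriptase in the granular layer, was at 712, 1123 and 567 in mutant and 711, 869 and 910 in control samples. In both, mutant sample 2 was the highest and mutant sample 3, not 1, the lowest of the 6. The differences were -0.052 (SE 0.21) and -0.10 (SE 0.24).

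The 3 members below the filter were not tested. Degs2, the desaturase and hydroxylase that makes phytoceramide, was at 718 in mutant sample 1, at 72.3 and 82.6 in mutant samples 2 and 3, and at 115, 33.5 and 12.1 in control samples. The high value fell in the sample with decidual transcripts, whose part in it was not tested. Elovl3, an elongase of sebaceous gland and brown fat, lay between 53.7 and 80.5 in all 6 samples. Lipn was at 5.65, 43.5 and 27.3 in mutant and 118, 54.8 and 46.9 in control samples. Its groups did not overlap, but 5 of the 6 values lay below the filter level of 114.5. Just inside the filter, Abca12 lay between 180 and 225.

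Probe sets of a gene could disagree. Of 17 members with more than 1 tested probe set, 10 had one sign in all of them. The others were Sptlc1, Scd1, Elovl6, Fabp5, Smpd1, Lipm and Hmgcs1.

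Further genes of the same pathways were taken from lists of 121 names in 5 groups, of which 108 had a probe set and 93 were tested. No gene of these lists passed an adjusted p of 0.05, 51 were positive and 42 negative, and the median was 0.039. At an unadjusted p under 0.05 there were 5 higher and 3 lower, beside the 1.45% and 1.97% of all probe sets. Every mutant value was above every control value in 5 of the 93 genes and below in 2. Among all probe sets tested, 3.3% were separated upward and 5.03% downward, 8.33% in all. Abcg1, a cholesterol exporter, was at 628, 621 and 540 in mutant and 374, 446 and 398 in control samples. The groups did not overlap, the mutant samples were close together, and the difference was 0.53 (SE 0.16, limma adjusted p = 1.0). In the same list of 25 tested sterol genes, 14 were positive, among them Fdft1 and Sqle, enzymes of squalene synthesis and oxidation, with 0.34 and 0.32. Without mutant sample 1 the differences of Abcg1, Fdft1 and Sqle were 0.49, 0.34 and 0.48. The list's balance of signs leans on that sample, with median deviations of -0.16, 0.29 and 0.081 in mutant samples 1, 2 and 3.

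Of 22 tested sphingolipid genes outside the members, 11 were positive and 11 negative. Gba2, a non-lysosomal glucosylceramidase, differed by -0.67 (SE 0.24), with mutant samples at 357, 551 and 430 and control samples at 544, 700 and 957. Asah2, the neutral ceramidase, was lower in every mutant sample, at 977, 959 and 872 against 1375, 1221 and 1089, a difference of -0.38. Sgpl1, the sphingosine phosphate lyase, differed by -0.39, and by -0.21 without mutant sample 1. None of these 3 passed the adjusted threshold.

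In the fatty acid list, with 33 tested genes, 17 were positive. Agpat2, an acyltransferase of triglyceride synthesis, was at 593, 417 and 529 in mutant and 369, 321 and 380 in control samples, and Mgll, the monoglyceride lipase, at 1570, 716 and 735 against 503, 586 and 634. Mutant samples lay above control samples in both, by 0.49 and 0.69, and mutant sample 1 was the highest in both. Without it the differences were 0.38 and 0.33. In that sample the summed signal of 4 tested adipocyte markers was 25316, against 12190 to 15634 in the other 5 samples, and 4 further adipocyte markers lay below the filter. Their part in these values was not tested. Sdr9c7, a dehydrogenase acting after the lipoxygenases, differed by -0.36.

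Of 5 tested nuclear receptors of lipid sensing, Rxrb, a retinoid X receptor, was lower in every mutant sample, at 700, 836 and 797 against 1108, 967 and 1045, a difference of -0.41. Ppara, a fatty acid receptor, differed by 0.58 and Rxra by -0.35, and both overlapped between groups. Without mutant sample 1 these were 0.36 and -0.012. Among 8 tested membrane proteases, inhibitors and channel subunits, 7 were positive. Spint1, the inhibitor of matriptase, was at 1203, 1335 and 1028 in mutant and 932, 966 and 741 in control samples, a difference of 0.43 (SE 0.17, limma adjusted p = 1.0). Its groups did not overlap, whereas those of its target St14 did. Tmprss13, a related protease, differed by -0.32 and Scnn1a, a subunit of the epithelial sodium channel, by 0.27.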

How the data were processed

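Skin RNA of 6 samples was purified on Qiagen columns and biotin-labelled for Affymetrix arrays, per the labels' protocols. The authors deposited 1 linear signal intensity for each probe set and array, made with MAS5 per the submitters' processing notes, and its settings are not given in the sources used here. With 2% of values trimmed from either end, each array averaged 500.0, and medians were 110.4 to 131.5. Detection calls were not used. The number of arrays limits the precision.

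Signals were analysed as log2(signal + 24.48), the 20th percentile of all values, which understates changes of dim probe sets. The 64 control probe sets were left out, and probe sets with a mean log2 above the median (about 114.5) were kept. Genes came from the platform annotation (34958 probe sets with 1 symbol, 932 with several, 9211 with none), used only where 1 symbol was given. Groups were compared with limma 3.58.1 in R 4.3.3 (lmFit, eBayes with a trend, two-sided). Adjusted p-values are Benjamini-Hochberg values over the 22518 probe sets. With 3 against 3 samples the smallest exact two-sided permutation p is 0.1. The script was tested on simulated data.

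Members and lists were chosen with earlier results of these data known. Values in every sample are given for the 12 members with the smallest p, those whose groups do not overlap and 9 fixed ones, and companion lists are named by their 3 smallest p. Sptlc1, Sult2b1, Dgat2, Smpd1 and members below the filter were added after their values were seen. Alternatives were other pseudocounts, filters, normalizations and variance models, array weights, the replicate number as a block, each sample left out, an adjusted p under 0.1, the mean over probe sets, and leaving out _s_at, _x_at and _a_at probe sets. Figures were drawn with matplotlib 3.10.9.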

Additional observations from a re-analysis of the deposited data

How the results depend on the processing

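By the probe set that stood for it, no member passed an adjusted p of 0.05 in any of the 18 other fits (smallest adjusted p 0.233, with array weights), while a dimmer Sptlc1 probe set passed without mutant sample 1 (0.0272) and with array weights (0.0076). The unadjusted p of Elovl6 was 0.05 or more under 9 of 18: quantile normalization (0.0503), median centring (0.0913), no variance trend (0.0732), the replicate block (0.0555), the mean over probe sets (0.747), and without mutant sample 2 (0.154) or control sample 1 (0.13), 2 (0.0844) or 3 (0.0986). Its groups overlapped with median centring. The members' median ran from -0.10 to 0.14 with 1 sample left out, and was 0.030 with array weights and 0.0054 with the mean over probe sets. The pooled SD of the sample medians was 0.16. It comes from the same samples, so it is no separate check of stability. Over all probe sets, calls were 1 higher and 0 lower, 47 and 59 with array weights (mutant samples 1, 2 and 3 at weights of 0.257, 0.56 and 3.13), 8 and 0 with the replicate block, 1 and 1 with the mean over probe sets, and 1 to 25 higher and 0 to 14 lower with 1 sample left out. Mutant and control samples of the same number had deviations that correlated at -0.0525, -0.0735 and 0.115. These gave no sign of pairing by number, but with 3 samples in each group they cannot exclude it. With the replicate block 0 members passed.

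Of 554 member values under alternatives, 46 in 21 genes had the other sign, none past the threshold; the causes were not tested beyond the samples named here. With array weights these were Sptlc1 (0.15), Sptlc3 (0.078), Scd1 (0.030), Pnpla1 (-0.14), Abhd5 (-0.059), Fabp5 (-0.031) and Lipm (0.081). With the mean over probe sets they were Sptlc1 (0.49), Scd1 (0.043), Fabp5 (-0.042) and Lipm (0.061), without _s_at, _x_at and _a_at probe sets Fabp5 (-0.10) and Lipm (0.16), with quantile normalization Fabp5 (-0.036), and with median centring Pnpla1 (-0.0091). With 1 sample left out, differences ran from -0.38 to 0.36 for Sptlc1, -0.21 to 0.25 for Sptlc3, -0.028 to 0.19 for Cers3, -0.15 to 0.061 for Fasn, -0.039 to 0.14 for Elovl4, -0.26 to 0.14 for Pnpla1, -0.010 to 0.18 for Abhd5, -0.40 to 0.33 for Alox12b and -0.31 to 0.053 for Aloxe3. They ran from -0.15 to 0.031 for Gltp, -0.025 to 0.088 for Fabp5, -0.37 to 0.15 for Smpd1, -0.36 to 0.012 for Acer1, -0.031 to 0.38 for Lipk, -0.12 to 0.060 for Lipm, -0.037 to 0.42 for Dgat2, -0.024 to 0.12 for Hmgcs1, -0.53 to 0.093 for Sult2b1, -0.23 to 0.15 for St14 and -0.36 to 0.11 for Prss8.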
